A study of Mus musculus with 14 samples.

Results

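Notch1, Notch2, Notch3 and Notch4 encode the mouse Notch receptors. Dll1, Dll3, Dll4, Jag1 and Jag2 encode the ligands presented by neighbouring cells, and Lfng encodes a fringe glycosyltransferase. These 10 genes, picked by symbol, are described here out of 22535 genes with a symbol, across 11 RNA-seq libraries and against the binding sites of TAF9B, a paralog of the TFIID subunit TAF9, and of RNA polymerase II (POL2). All samples are of C57BL/6 background. The culture libraries came from mouse embryonic stem (ES) cells and from embryoid bodies (EBs), the aggregates formed when ES cells differentiate, on days 2, 4 and 6. Retinoic acid and the Hedgehog pathway agonist SAG drove the EBs toward motor neurons. Each stage has 1 library labelled wild type (WT), from the JM8 clone, and 1 labelled Taf9b knockout (KO), from the single clone Taf9b_BG10, in which a LacZ-neomycin cassette takes the place of coding exons of Taf9b. Newborn spinal column, meaning vertebrae with the tissue they enclose, has 1 WT and 1 KO library from littermates, and newborn spinal cord has 1 WT library. The chromatin immunoprecipitation (ChIP) data are from EB-motor neurons of the HBG3 line, which carries a GFP reporter driven by the motor neuron gene Mnx1. These cells were differentiated for 8 days, a stage with no RNA-seq library.

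In Notch signalling a ligand on 1 cell binds a receptor on the next, which is then cut so that its intracellular part enters the nucleus and joins the DNA-binding protein RBPJ. In the embryonic spinal cord, newly forming neurons carry high levels of Delta-like ligands under the control of proneural factors such as Neurog2, while the progenitors around them are held back from differentiation by targets such as Hes5 and Hes1. Jagged ligands mark other domains of the neural tube and many non-neural tissues. Fringe enzymes add a sugar to the receptors that shifts their response toward Delta-like and away from Jagged ligands. Dll3 is unusual among the ligands because it acts within the cell that makes it.

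Levels are given in FPKM (sequenced fragments scaled to transcript length and library size), so genes can be compared within a library. No condition has a replicate, and each value below is 1 library with no error. No test was made, since stages of 1 clone per label are not replicates, and a ratio between libraries describes those libraries. Each KO and WT pair shares 1 table. The tables were normalized separately, and the ES cell library labelled WT, which is listed in 2 of them, differs between them by a factor of 1.09 over 11679 genes. Levels set side by side across stages carry that limit. The targeted gene went against its label in culture. For ES cells Taf9b read 0.537 FPKM under the WT label and 3.06 FPKM under the KO label, and the KO label had the higher value at all 3 EB stages too. Spinal column gave 6.65 FPKM under WT and 3.31 FPKM under KO. FPKM counts reads over the whole transcript, so reads from outside the deleted exons cannot be told apart from intact transcript, and libraries are therefore called by their labels throughout. The tables hold no read counts. Values of genes with few fragments fall weakly on multiples of 1 fragment, which puts 1 fragment between 0.00832 and 0.0355 FPKM for a transcript of 1 kb in the culture libraries, the smallest step and so the greatest depth being that of EB day 4. In tissue no such step was clear. The fit, a mean cosine of at most 1, was 0.098 to 0.102 in ES cells labelled KO and both day 6 EB libraries. It was at most 0.085 in tissue, so fragment numbers for those 3 culture libraries are rough.

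Notch3 was the highest of the 4 receptors in 11 of 11 libraries. Its locus lies on chromosome 17 of build mm9 (chr17:32257838-32303797). It was at 20.1 FPKM in the ES cells labelled WT and 21.2 FPKM in those labelled KO. In EBs the library labelled WT had 10.5 FPKM on day 2, 11.9 FPKM on day 4 and 7.73 FPKM on day 6. The libraries labelled KO had 15.2, 18.1 and 7.87 FPKM on the same days. Newborn spinal column was at 9.95 FPKM with the WT label and 5.87 FPKM with the KO label, and spinal cord at 6.81 FPKM. ES cells of either label thus stood above every EB and tissue library. Notch3 is known as the receptor of pericytes and vascular smooth muscle. The 6 markers listed for these mural cells summed to 315 and 328 FPKM in ES cells labelled WT and KO, where the cultures are kept on feeder fibroblasts, against 7.29 and 6.61 FPKM in day 2 EBs. Their part in the Notch3 level was not tested. Notch3 made up 65.2% of the summed receptor FPKM in ES cells labelled WT, 36.7% at EB day 4, 49.2% at EB day 6 and 40.4% in spinal cord.

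Notch1 (chr2:26313422-26359342), the receptor best known for keeping neural progenitors undifferentiated, peaked at EB day 4 in both series. Under the WT label it read 4.53 FPKM before differentiation and 3.95, 11.2 and 5.42 FPKM on days 2, 4 and 6. Under the KO label it read 3.93 FPKM and then 4.37, 8.49 and 2.46 FPKM. Spinal column held 5.40 FPKM with the WT label and 2.09 FPKM with the KO label, the lowest of the 11 libraries, and spinal cord 4.57 FPKM. Notch1 and Notch3 were close on day 4 with the WT label, at 34.6% and 36.7% of the receptor sum. Exons of Notch1 share 1068 bases with the antisense lincRNA 0610009E02Rik. No strand setting is stated for the counting, so reads from both transcripts cannot be separated. The same holds for 488 bases of Notch3 (Gm17276) and 214 bases of Dll4 (Gm14207).

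Notch2 (chr3:97817461-97954290), a receptor widely present in mesenchyme and progenitors, also peaked on day 4. With the WT label the ES cell level was 4.66 FPKM, followed by 3.96, 8.50 and 1.98 FPKM on days 2, 4 and 6. With the KO label it was at 4.70 FPKM and then 4.30, 11.9 and 2.95 FPKM. Its ranking by label was opposite to that of Notch1 on days 4 and 6. Spinal column had 5.92 FPKM with the WT label and 2.61 FPKM with the KO label, and spinal cord 3.96 FPKM.

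Notch4 (chr17:34701240-34725488), a receptor of endothelium, was the lowest receptor in each library. It was at 1.54 and 1.29 FPKM in ES cells labelled WT and KO. It was below 1 FPKM in the 6 EB libraries, between 0.233 and 0.849 FPKM. It was at 3.46 and 1.78 FPKM in spinal column with the WT and KO label and at 1.52 FPKM in spinal cord. Spinal column, the highest, also had the highest sum of 7 endothelial markers, at 136 FPKM with the WT label and 161 FPKM with the KO label, against 98.4 FPKM in spinal cord. In whole tissue, fewer cells of a type and less RNA per cell cannot be told apart.

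**Figure D1:**
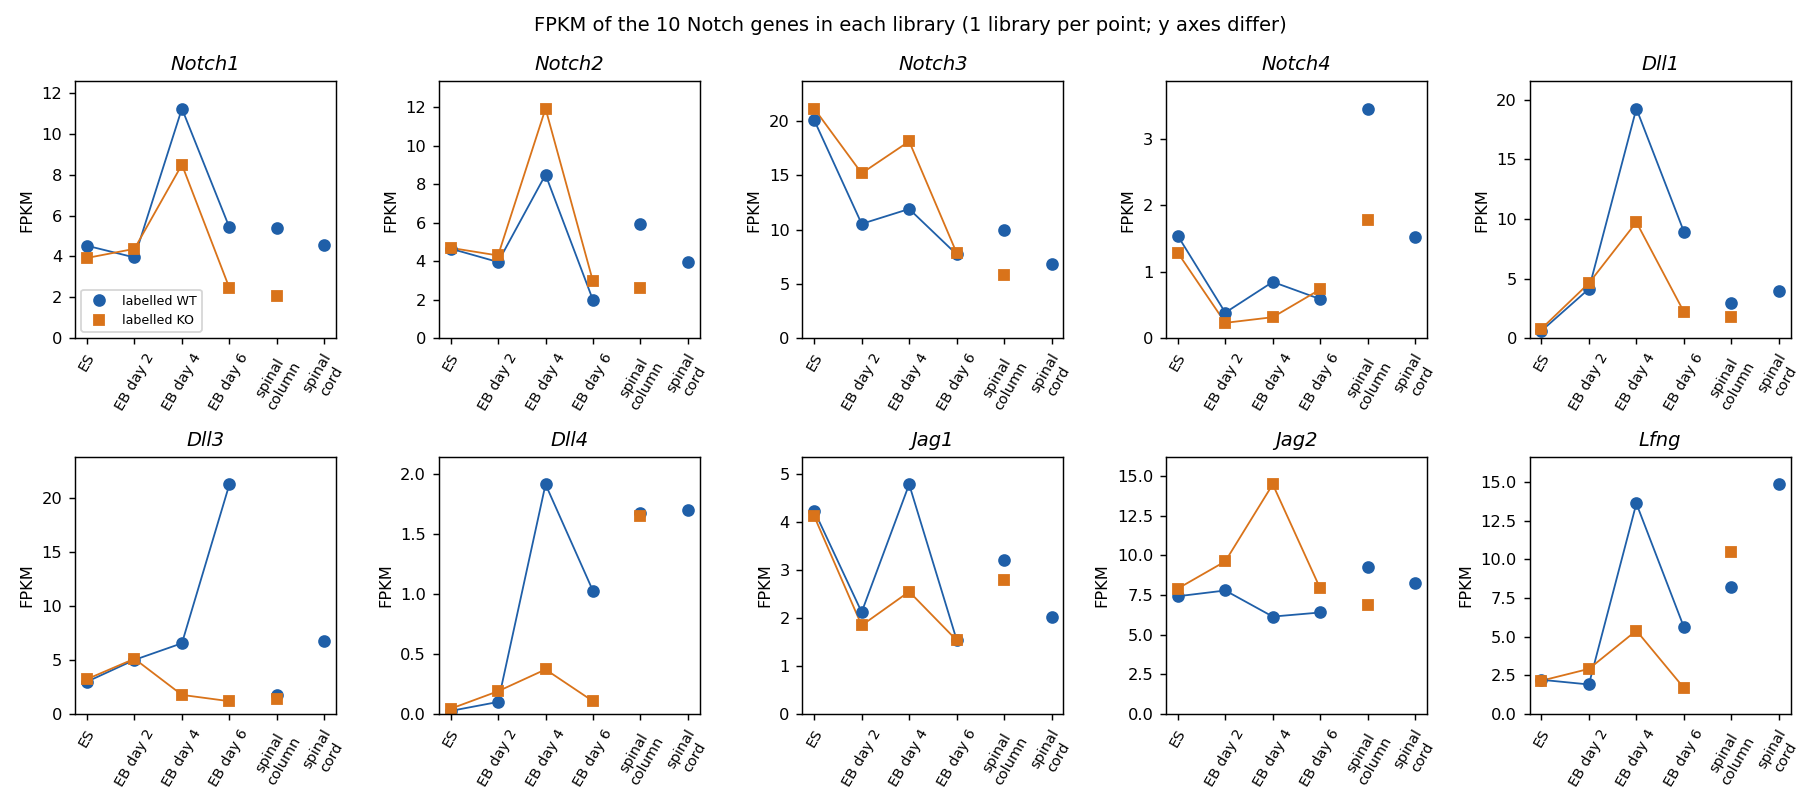
FPKM (y axis, linear from 0, a separate scale for each gene) of the 10 genes in ES cells, EBs on days 2, 4 and 6, newborn spinal column and newborn spinal cord (x axis). Each point is 1 library, blue circles labelled WT and orange squares labelled KO, with lines joining the culture stages; Dll1, Dll4 and Lfng reach their culture maximum in the day 4 library labelled WT and Dll3 in the day 6 library labelled WT, at 21.2 FPKM against 1.18 FPKM with the KO label.

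Of the Delta-like ligands, Dll1 and Dll4 were below 1 FPKM in ES cells and higher in every EB library with the same label, while Dll3 depended on the label. Dll1 (chr17:15504318-15512787), the main Delta ligand of spinal progenitor domains, was at 0.623 FPKM in ES cells labelled WT and at 4.14, 19.3 and 8.95 FPKM on days 2, 4 and 6. In the libraries labelled KO it was at 0.80 FPKM and then 4.62, 9.74 and 2.22 FPKM. Spinal column held 2.97 FPKM and 1.78 FPKM with the WT and KO label, and spinal cord 3.95 FPKM. The 2 series were alike up to day 2, and the library labelled WT was the higher at each later stage. On day 4 with the WT label Dll1 was the highest of the 10 genes. Dll1 exons share 867 bases with the antisense lincRNA A930024N18Rik, again without strand information.

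Dll3 (chr7:29078574-29086804) showed the widest split by label. With the WT label the ES cell level was 2.99 FPKM, followed by 5.0, 6.54 and 21.2 FPKM on days 2, 4 and 6. With the KO label it was at 3.22 FPKM and then 5.11, 1.77 and 1.18 FPKM. The series labelled WT rose at each step, and the series labelled KO fell after day 2. Spinal column was at 1.78 and 1.35 FPKM with the WT and KO label, and spinal cord at 6.78 FPKM. Among the 10 genes, Dll3 alone was more than 2-fold higher on day 6 than on day 4 with the WT label (log2 ratio 1.70).

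Dll4 (chr2:119146935-119161402), a ligand of arterial endothelium and of some spinal interneurons, was at 0.0256 and 0.0436 FPKM in ES cells labelled WT and KO, which is about 5 and 7 fragments by the depth estimate. The authors' status for it is OK in 4 of the 6 tables. With the WT label it was at 0.10, 1.91 and 1.03 FPKM on days 2, 4 and 6. With the KO label it was at 0.190, 0.371 and 0.106 FPKM, the last about 16 fragments. Spinal column had 1.68 FPKM with the WT label and 1.65 FPKM with the KO label, and spinal cord 1.70 FPKM. The 3 tissue libraries were nearly equal, and in culture only the libraries labelled WT of days 4 and 6 passed 1 FPKM. The sum of the 7 endothelial markers was 22.5 FPKM on day 2, 2.95 FPKM on day 4 and 8.51 FPKM on day 6 with the WT label, and 25.4 FPKM on day 6 with the KO label. Most of it was Pecam1, at 19.1 FPKM on day 2 with the WT label, which was also at 15.4 FPKM in the ES cells labelled WT. Cdh5, a marker of endothelial junctions, was at 0.125 and 0.882 FPKM on day 4 and 0.159 and 1.44 FPKM on day 6, WT label first. The part of endothelial cells in the Dll4 level was not tested.

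The Jagged ligands followed other courses. Jag1 (chr2:136907187-136942256), at 4.24 and 4.12 FPKM in ES cells labelled WT and KO, was at 2.12, 4.79 and 1.55 FPKM on days 2, 4 and 6 with the WT label and at 1.85, 2.55 and 1.54 FPKM with the KO label. It was at 3.22 and 2.79 FPKM in spinal column and 2.01 FPKM in spinal cord. Jag1 was lower in the library labelled KO in 5 of 5 pairs, by a log2 ratio between -0.91 and -0.01. The spinal column ratio among them, -0.21, was 0.17 once centred on genes of like transcript length. Jag2 (chr12:114146801-114167706) was the steadiest of the 10 with the WT label, at 7.42 FPKM before differentiation, 7.79, 6.14 and 6.40 FPKM in EBs, 9.24 FPKM in spinal column and 8.26 FPKM in spinal cord. With the KO label it was at 7.91 FPKM in ES cells, then 9.62, 14.5 and 7.91 FPKM, and 6.85 FPKM in spinal column. The day 4 library labelled KO was thus the highest of the 11, the day 2 library with that label coming next.

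Lfng (chr5:141083295-141091499) was at 2.21 and 2.15 FPKM in ES cells labelled WT and KO. With the WT label it was at 1.91, 13.6 and 5.63 FPKM on days 2, 4 and 6, and with the KO label at 2.92, 5.40 and 1.69 FPKM. It was the highest of the 10 genes in spinal cord, at 14.9 FPKM, and in the spinal column library labelled KO, at 10.5 FPKM, against 8.19 FPKM in the one labelled WT. In the spinal column pair the ratio of all genes fell with transcript length, and the Lfng transcript, at 2.3 kb, is the shortest of the 10. Its rank with the KO label carries that limit. Lfng and Dll4 had the closest pattern of any pair among the 10, with a Pearson r of 0.96 for log2(FPKM + 1) over the 11 libraries, and Notch3 and Dll4 the most opposed, at -0.62. Over the 8 culture libraries alone these were 0.95 and -0.38, and the most opposed pair was Notch4 and Dll1, at -0.58. These points share stages and tables, so r is a description.

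The mix of Delta-like and Jagged ligands differed between stages and, on days 4 and 6, between labels. The summed FPKM of the 3 Delta-like ligands was 0.31 times that of the 2 Jagged ligands in ES cells labelled WT and 0.34 times in those labelled KO. The ratio was 0.93 and 0.86 on day 2, 2.54 and 0.70 on day 4, and 3.93 and 0.37 on day 6, each with the WT label first. Spinal column was at 0.52 and 0.50, and spinal cord at 1.21. Delta-like ligands outweighed Jagged ligands in 3 libraries, the day 4 and day 6 EBs labelled WT and the spinal cord. These sums include Dll3, which acts within the cell that makes it. In spinal cord Dll3 was 6.78 of the 12.4 FPKM of Delta-like ligands, beside 10.3 FPKM of Jagged ligands. With the WT label it was 6.54 of 27.7 FPKM on day 4 and 21.2 of 31.2 FPKM on day 6.

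**Figure D2:**
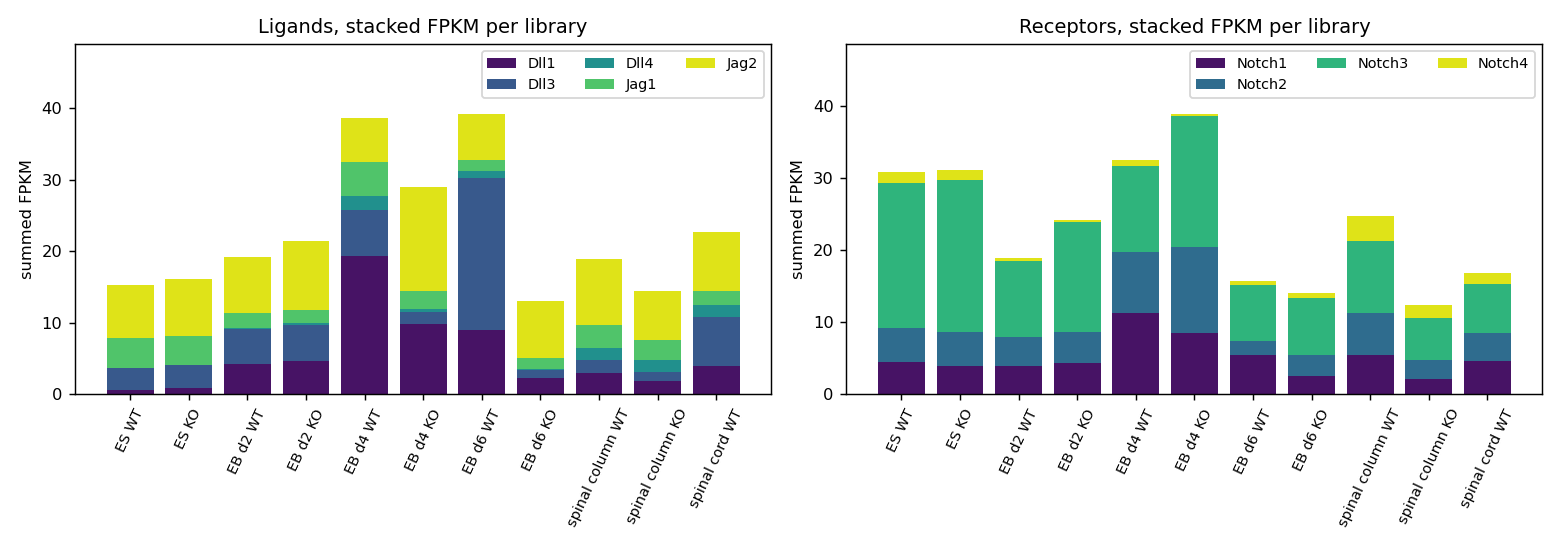
Stacked FPKM of the 5 ligands (left) and the 4 receptors (right) in each of the 11 libraries (x axis), with summed FPKM on a linear y axis from 0. Dll1 and Dll3 fill most of the ligand bars of the day 4 and day 6 EBs labelled WT, and Notch3 is the largest share of each receptor bar.

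Between stages, the WT-labelled EBs of day 4 held 6 of the 9 genes above 1 FPKM at more than 2 times their day 2 level and none at less than 0.5 times, against 15.6% of 12354 expressed genes higher and 13.7% lower. A gene counts as expressed when either library of the pair exceeds 1 FPKM. The 6 were Lfng (log2 ratio 2.83), Dll4 (4.25), Dll1 (2.22), Notch1 (1.51), Jag1 (1.17) and Notch2 (1.10). Notch4, below 1 FPKM on both days, was at 1.14. In the libraries labelled KO, Notch2 (1.47) and Dll1 (1.08) were higher past 2-fold and Dll3 (-1.53) was lower, beside 15.4% higher and 7.73% lower of expressed genes. Notch1, at 0.96, was just inside the 2-fold line there, as was Dll4, at 0.97, which was below 1 FPKM on both days. From day 4 to day 6, Notch1, Notch2, Dll1, Jag1 and Lfng were lower past 2-fold with the WT label and Dll3 was higher, beside 9.94% lower and 17.0% higher of all expressed genes. With the KO label Notch1, Notch2, Notch3, Dll1 and Lfng were lower and none of the 8 above 1 FPKM was higher, beside 10.9% lower and 12.4% higher. Below 1 FPKM on both days, Notch4 was at 1.21 and Dll4 at -1.80.

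Ratios between stages varied with transcript length over all genes, and the receptors, Jag1 and Jag2 have longer transcripts than the other members. Genes over 8 kb, the class of Notch1, Notch2 and Notch3, had a median log2 ratio of 0.43 from day 2 to day 4 and -0.86 from day 4 to day 6 with the WT label, and 0.63 and -1.03 with the KO label. Centred on the median of their own length class, 4 genes were higher on day 4 than on day 2 with the WT label, Notch1 (1.07), Dll1, Dll4 and Lfng, while Notch2 (0.67) and Jag1 (0.86) were within 2-fold. Under the KO label none was then higher, and Dll3 was lower. From day 4 to day 6 with the WT label the centred ratio of Notch1 was -0.19, Dll4 passed 2-fold at -1.02, and the calls of the other 5 held. Under the KO label Dll1 and Lfng alone remained lower past 2-fold of the 5.

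Against ES cells, day 6 EBs labelled WT held 4 of the 10 genes higher past 2-fold and 4 lower, with 22.9% and 15.0% of 12858 expressed genes past the line. Higher were Dll4 (log2 ratio 5.32), Dll1 (3.84), Dll3 (2.83) and Lfng (1.35), and lower were Jag1 (-1.45), Notch4 (-1.39), Notch3 (-1.38) and Notch2 (-1.23). In this comparison genes over 8 kb had a median log2 ratio of -0.94. Centred on the median of its length class, Notch2 was at -0.30 and Notch3 at -0.44, neither past 2-fold, and Notch1 changed from 0.26 to 1.20, past 2-fold higher. Dll1, Dll3, Dll4 and Lfng remained higher under that centring, and Jag1 and Notch4 remained lower. With 1 FPKM added to both values Dll4 (0.98), Notch4 (-0.68) and Notch2 (-0.92) were within 2-fold. Spinal cord and ES cells share a table and can be set side by side directly. There the same 4 genes were higher, Dll4 by 5.93, Lfng by 2.62, Dll1 by 2.54 and Dll3 by 1.06 on the log2 scale, and Notch3 (-1.69) and Jag1 (-1.20) were lower. The size of the Dll4 ratio rests on an ES cell level of 0.0279 FPKM, near 0. The background was 30.4% higher and 35.7% lower of 14390 expressed genes, with a median log2 ratio of -0.26. Relative to that median Notch1 (-0.11) and Notch4 (-0.15) turn to 0.15 and 0.12, and Jag1, at -0.94, was within 2-fold. With 1 FPKM added Jag1 (-0.90) and Dll3 (0.87) were within 2-fold. Both comparisons use the ES cell library labelled WT, so their likeness is not independent.

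In ES cells and on day 2 the members above 1 FPKM were within 2-fold between the labels. In ES cells none of the 8 genes above 1 FPKM passed 2-fold. The ratios of all 10 ran from -0.26 for Notch4 to 0.77 for Dll4, whose level is near 0, and 0.54% of 12032 expressed genes were higher and 0.59% lower past 2-fold. On day 2 again none of 8 passed, with 1.19% higher and 1.4% lower over 11968 expressed genes. The largest day 2 ratio of a gene above 1 FPKM was 0.61, for Lfng at 1.91 FPKM with the WT label and 2.92 FPKM with the KO label.

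On day 4 the pairs diverged. Of 9 genes above 1 FPKM, Dll4 (-2.37), Dll3 (-1.89) and Lfng (-1.34) were lower past 2-fold in the library labelled KO, beside 4.46% of 12563 expressed genes. Jag2 (1.24) was higher, beside 12.1%. Dll1, at -0.98, and Jag1, at -0.91, lay just inside the line. By sign alone 4 of the 5 ligands were lower, Jag2 being the exception, where 52.3% of all expressed genes were lower. Of the receptors Notch1 was at -0.40, Notch2 at 0.49 and Notch3 at 0.61, and Notch4, below 1 FPKM with both labels, was at -1.42. The median of the 10 genes was -0.95 and that of all expressed genes -0.03.

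On day 6 the Delta-like ligands were lower still. Dll3 had a log2 ratio of -4.17, Dll4 of -3.27, Dll1 of -2.01, Lfng of -1.74 and Notch1 of -1.14, and these 5 of 9 genes were past 2-fold lower beside 9.93% of 13006 expressed genes. None was higher, beside 10.5%. With 1 FPKM added to both values 3 remained past 2-fold, Dll3, Dll1 and Lfng, while Dll4 at 1.03 and 0.106 FPKM and Notch1 did not. Jag1 (-0.01), Notch3 (0.02), Jag2 (0.31) and Notch2 (0.58) stayed within 2-fold. The ligands therefore split by family, Delta-like low and Jagged level, in these 2 libraries.

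**Figure D3:**
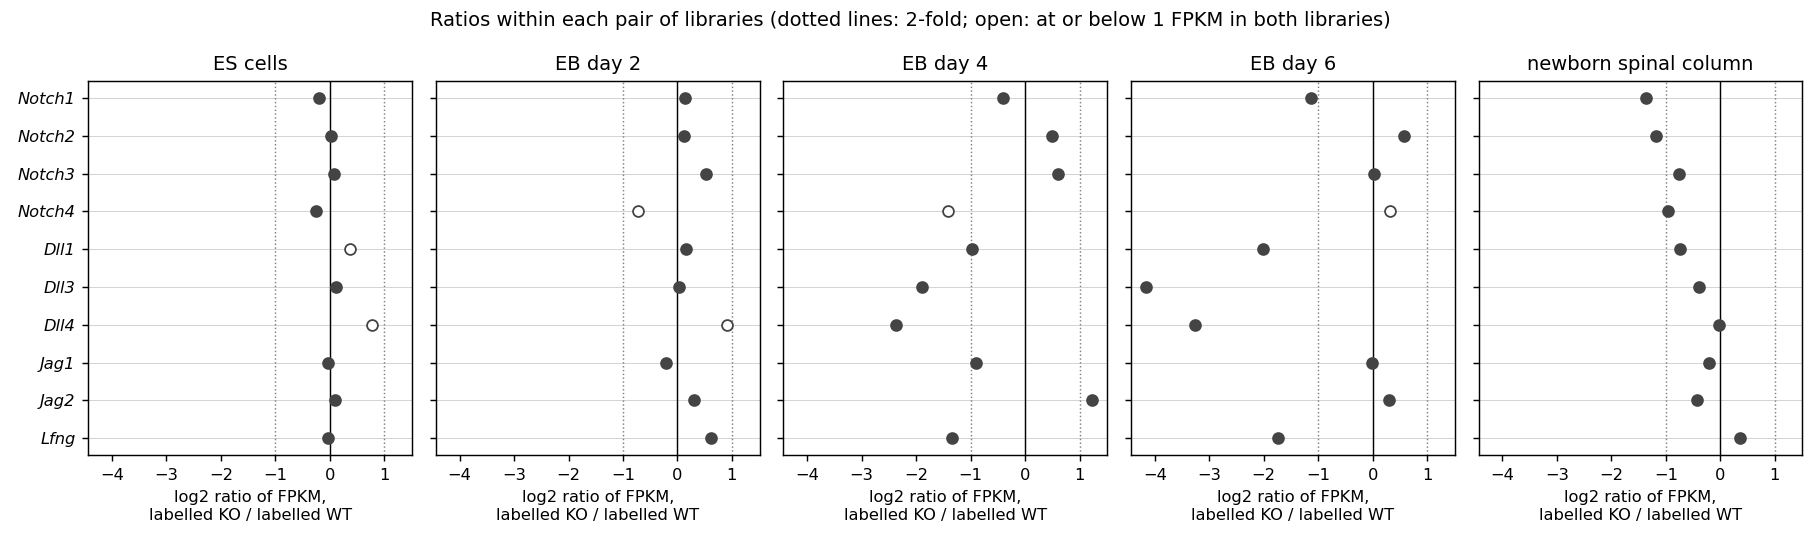
Log2 ratio of FPKM, library labelled KO over library labelled WT (x axis), for the 10 genes (rows) in the 5 pairs of libraries (panels). Each point is 1 ratio without error; open points are genes at or below 1 FPKM in both libraries, dotted lines mark 2-fold, and the points of Dll3 and Dll4 stand at 0.11 and 0.77 in ES cells and at -4.17 and -3.27 on day 6.

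Several lists of cell type markers also differed between the labels on these days. On day 4, 5 of 5 pluripotency markers were higher past 2-fold in the library labelled KO, with sums of 180 and 30.1 FPKM for KO and WT, and 4 of 6 neural progenitor markers were lower (152 and 321 FPKM). Of the 5 neuron markers above 1 FPKM on day 4, 1 was higher and 2 were lower (37.9 and 30.9 FPKM). Of the 3 mural markers above 1 FPKM that day, 1 was higher and 1 was lower (11.4 and 12.5 FPKM). On day 6, 7 of 7 neuron markers were lower (108 and 819 FPKM), 5 of 6 progenitor markers were lower (116 and 160 FPKM), 4 of 5 pluripotency markers were higher (886 and 342 FPKM), and of the mural markers 4 of 4 above 1 FPKM were higher (32.3 and 9.47 FPKM). The endothelial markers above 1 FPKM were higher too, 1 of 1 on day 4 (9.82 and 2.95 FPKM) and 3 of 3 on day 6 (25.4 and 8.51 FPKM). No marker of these 5 lists was at 0 in either EB pair. Markers of presomitic mesoderm, another site of Dll1, Dll3 and Lfng, summed to 1.26 and 2.72 FPKM on days 4 and 6 with the WT label and 2.23 and 3.40 FPKM with the KO label. In ES cells and on day 2 the sums were 8.62 and 14.3 FPKM with the WT label and 2.42 and 2.23 FPKM with the KO label, most of the WT sums being T (brachyury), at 6.86 and 12.6 FPKM. Msgn1 and Ripply2 were at 0 in at least 1 library of each culture pair. The part of cell composition in the ratios was not tested. Pluripotency markers were also higher on day 6 than on day 4 with the WT label, at 342 and 30.1 FPKM.

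The rest of the pathway gives the context. Of 47 further genes listed, 45 were found. On day 4, 3 of the 40 above 1 FPKM were higher and 6 lower past 2-fold in the library labelled KO, beside 12.1% higher and 4.46% lower of all expressed genes. On day 6, 1 of 42 was higher and 11 were lower, beside 10.5% and 9.93%. Neurog2, a proneural factor that activates Delta-like genes, was at 15.8 FPKM with the WT label and 1.62 FPKM with the KO label on day 4, and at 44.3 and 0.219 FPKM on day 6. Of the targets, Hes5 had the lowest KO over WT log2 ratio on both days (-4.30 and -5.52), at 71.0 and 3.61 FPKM on day 4 and 24.4 and 0.533 FPKM on day 6, WT label first. Hes1 differed little, at 47.5 and 40.9 FPKM on day 4 and 39.0 and 33.6 FPKM on day 6. On day 6, 3 of 5 targets above 1 FPKM were lower past 2-fold.

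Among the modifiers, the fringe Mfng was, like Lfng, lower past 2-fold in the library labelled KO on both days, at 11.9 and 2.84 FPKM on day 4 and 30.5 and 2.80 FPKM on day 6 for the WT and KO label. Between those days Mfng was higher on day 6 with the WT label (log2 ratio 1.36), where Lfng was lower (-1.27). Poglut1, the enzyme that adds glucose to the receptors, had the highest ratio of its list on both days (0.24 and 0.57). Of the receptor regulators Dtx4, a Deltex ubiquitin ligase, was the lowest (-1.76 and -2.56) and its relative Dtx1 the highest (2.03 and 1.08). None of the 8 expressed genes of the nuclear complex passed 2-fold on day 4, and on day 6 it was 1 of 8, Maml3 (-1.62), a coactivator. None of the 8 expressed protease genes passed 2-fold on day 6, and on day 4 it was 2 of 8, of which Psen2, a gamma-secretase subunit, was the highest (1.39). The ligand ubiquitin ligases had 0 past 2-fold on either day.

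In newborn spinal column the KO label had the lower value for 9 of the 10 genes, where 46.7% of all expressed genes were lower, and Notch1 (-1.37) and Notch2 (-1.18) were past 2-fold, beside 8.54% lower and 9.05% higher of 14255 expressed genes. Notch4 was at -0.96, Notch3 at -0.76 and Dll1 at -0.74. Lfng (0.35) was the exception, and Dll4 was at -0.02. In this pair the ratio of all genes followed transcript length. The median log2 ratio was 0.56 for 3262 genes whose longest coding transcript is up to 2 kb and -0.96 for 508 genes over 8 kb, and 45.9% of the latter were lower past 2-fold. Notch1, at 9.5 kb, Notch2, at 10.5 kb, and Notch3, at 8.0 kb, are in that class. Centred on the median of their own length class, Notch1 was at -0.41, Notch2 at -0.23 and Notch3 at 0.20, and none of the 10 genes passed 2-fold. Of the 10, 7 were then lower. Dll1, at -0.81, had the lowest centred ratio. In the culture pairs of KO and WT label the medians of the length classes lay between -0.08 and 0.15. Among the tissue markers, 2 of 6 neuron markers were lower past 2-fold (438 and 678 FPKM for KO and WT), as were 2 of 6 mural markers (291 and 188 FPKM), while 0 of 7 endothelial and 0 of 5 cartilage markers passed 2-fold (161 and 136 FPKM, 106 and 184 FPKM). Skeletal muscle markers summed to 361 and 3946 FPKM, of which Ckm, a muscle creatine kinase, was 3407 FPKM with the WT label and listed at 0 with the KO label. Acta1, the skeletal muscle actin, was listed at 0 in both, and Myog, a muscle regulator, was at 116 and 92.8 FPKM. The part of tissue composition in these ratios was not tested. Of the 41 expressed pathway genes 0 were higher and 3 lower past 2-fold, the lowest being Spen (-1.60), a corepressor in the RBPJ complex.

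**Figure D4:**
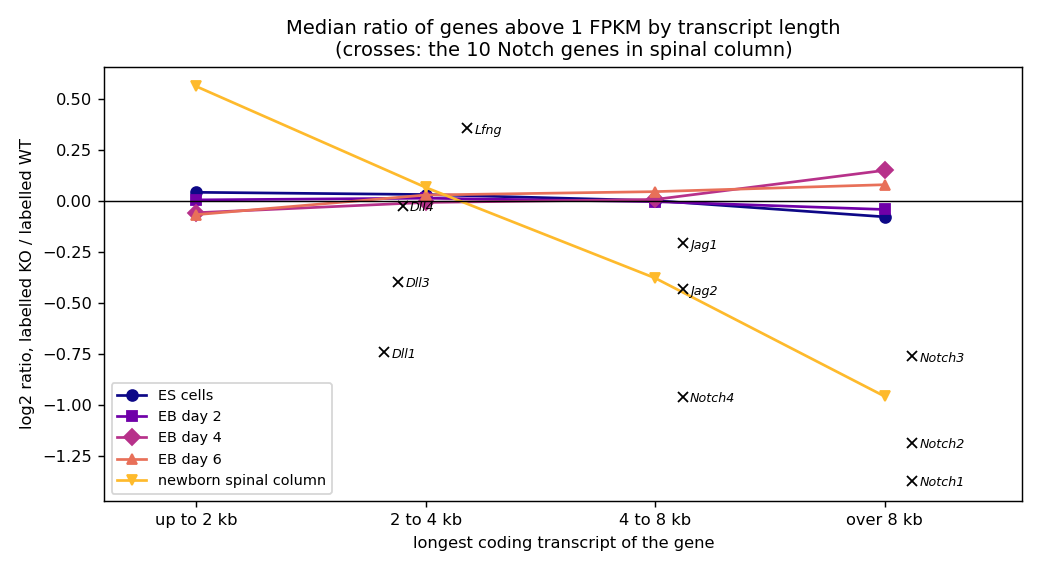
Median log2 ratio of FPKM, KO over WT label (y axis), of genes above 1 FPKM in 4 classes of longest coding transcript (x axis), with 1 line per pair of libraries. The spinal column line falls from 0.56 to -0.96 while the culture lines stay between -0.08 and 0.15; black crosses are the 10 Notch genes in spinal column, drawn in their length class and offset sideways for legibility.

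The genes with the most similar patterns over the 11 libraries differed from member to member. By Pearson r of log2(FPKM + 1), among 15663 genes, the closest were Zkscan8 (0.93), Zfp871 and Fign to Notch1; Wdfy2 (0.95), Mrtfb and Mlxip to Notch2; Wnk1 (0.96), Fat1 and Usp24 to Notch3; and Adam12 (0.95), Sh3pxd2a and Adamts5 to Notch4. For the ligands they were Tug1 (0.94), Zfp12 and Ptbp2 for Dll1, Sox12 (0.93), A930015D03Rik and Aptx for Dll3, and Abcd2 (0.98), Tab1 and Tha1 for Dll4. They were 4930528A17Rik (0.91), Pappa and Zbed6 for Jag1 and Epb41l4b (0.89), Cyyr1 and Mctp2 for Jag2. For Lfng they were Dipk1c (0.97), Zhx1 and Tox. With the 8 culture libraries alone, 2 of these 30 pairings were again among the closest 3.

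TAF9B and POL2 were mapped in motor neuron cultures as 1 library per antibody, giving 10415 and 8620 peaks. Around the coding transcription start sites (TSSs) of the 10 genes, 22 TAF9B peaks lay within 50 kb, and for 14 of them the nearest coding TSS was that of the Notch gene itself. These 14 belonged to Notch1 (4), Dll1 (4), Jag1 (2), Lfng (2), Notch2 (1) and Notch3 (1). Their MACS scores ran from 50.8 to 116 with a median of 60.9, and 12 of the 14 were below the median of the whole list, 83.3. Of the 14, 4 overlapped a POL2 peak, where 33.3% of all TAF9B peaks did. Dll3, Dll4, Jag2 and Notch4 had none of their own by this rule, and the TAF9B peaks near them were nearest to coding TSSs of other genes, such as Timm50 and Supt5h beside Dll3. The peak at chr17:34724085-34724357 (score 94.9) nevertheless lay in an intron of Notch4, and it overlapped a POL2 peak.

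TAF9B lay within 500 bp of a coding TSS in 1 of the 10 genes, Lfng, against 19.3% of 22232 protein-coding genes and 30.3% of the 11038 that were above 1 FPKM in day 6 EBs. POL2 did so in 4, Dll1, Dll3, Jag1 and Lfng, against 31.8% of all and 53.7% of expressed genes. With the start sites of noncoding transcripts included, TAF9B was at 3 genes, Lfng, Dll1 and Notch4, against 19.8% of all and 31.0% of expressed genes, the peaks of Dll1 and Notch4 lying 175 and 235 bp from such a start. A distal TAF9B peak, farther than 500 bp from any coding TSS and with the gene's TSS as the nearest within 50 kb, was present at 6 of the 10, namely Notch1, Notch2, Notch3, Dll1, Jag1 and Lfng. The shares of all and of expressed genes were 15.2% and 19.2%. These 6 were among the 9 genes expressed on day 6. Of the 6 distal sets, that of Notch1 alone held scores above the list median.

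**Figure D5:**
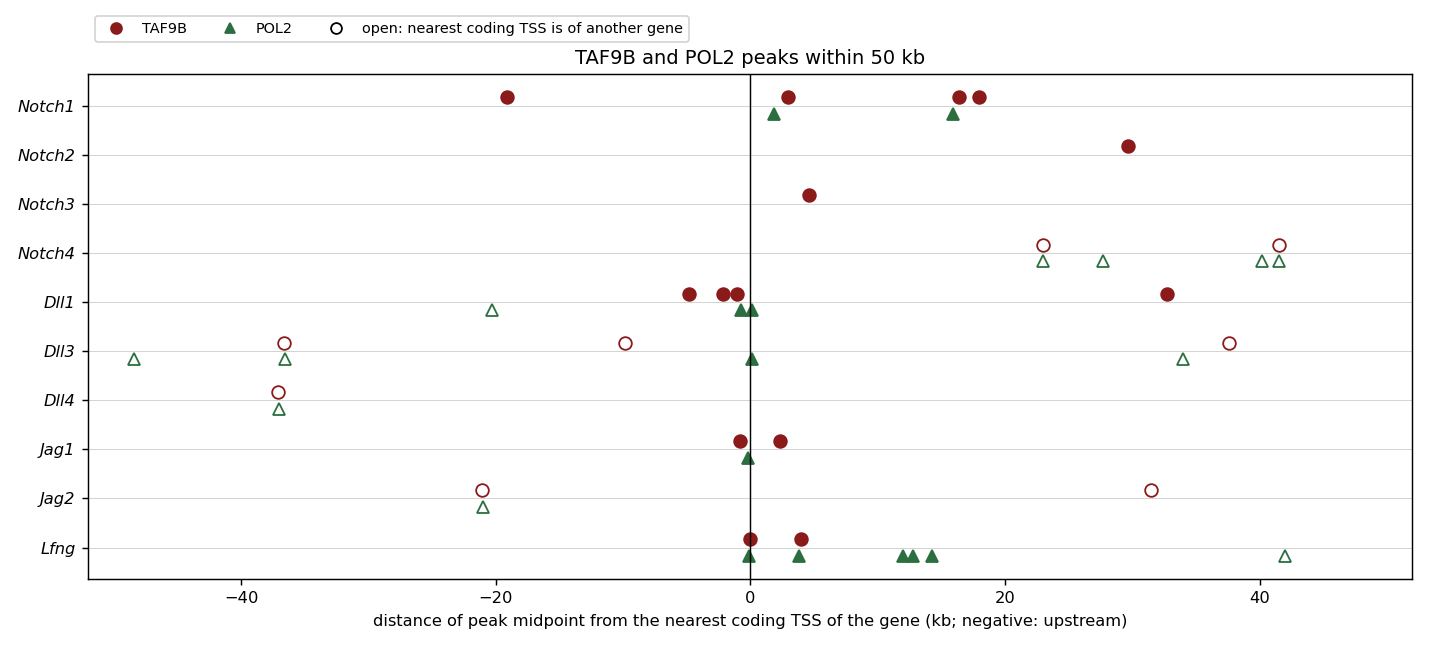
Distance in kb (x axis, negative upstream) of each TAF9B peak midpoint (red circles) and POL2 peak midpoint (green triangles) from the nearest coding TSS of each gene (rows), up to 50 kb; open symbols are peaks nearest to the TSS of another gene. Filled TAF9B peaks stand at 6 of the 10 genes, and the Lfng row has one at its TSS.

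At Lfng a TAF9B peak (chr5:141083164-141083320, score 52.0) was centred 53 bp upstream of the TSS inside a POL2 peak (chr5:141082830-141083533, score 383). A second TAF9B peak (chr5:141087126-141087348, score 64.9) lay 3.94 kb downstream in an intron, also with POL2. Dll1 had 3 TAF9B peaks upstream, 1.07, 2.17 and 4.82 kb from its coding TSS, with scores of 58.0, 53.5 and 67.5, and 1 beyond its 3′ end, 32.7 kb from the TSS (score 80.7). The nearest of them, 175 bp from the start of a noncoding Dll1 transcript, overlapped a POL2 peak (chr17:15513122-15514277, score 268), and a separate POL2 peak covered the TSS. Notch1 had 3 intronic TAF9B peaks, 2.94, 16.4 and 18.0 kb downstream of the TSS, and 1 between genes 32.0 kb upstream of it, which is 19.1 kb from the farthest upstream coding start (chr2:26372183). The intronic peak at 16.4 kb (score 105) overlapped POL2, and the upstream peak (score 116) did not. Jag1 had a TAF9B peak 0.84 kb upstream (score 51.8) and an intronic one 2.33 kb downstream (score 59.8), with POL2 on the TSS between them. Notch2 and Notch3 had 1 intronic peak each, 29.7 and 4.62 kb downstream, with scores of 50.8 and 62.0 and no POL2 peak.

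The mm9 sequences of the Lfng promoter, which the TAF9B peak at its TSS overlaps, and 6 of the TAF9B sites are given because Lfng, Dll1 and Notch1 are those of the 5 genes lower past 2-fold on day 6 that have TAF9B peaks of their own. Each is 200 bases in the direction of the gene, the promoter directly upstream of the TSS and the sites around the peak midpoint. Capitals mark the RBPJ core motif TGGGAA on either strand and the E-box, spelled CANNTG and the same on both strands. Proneural factors bind some forms of the E-box, and the capitals do not tell these from the others.
Lfng promoter, chr5:141083095-141083294, plus strand: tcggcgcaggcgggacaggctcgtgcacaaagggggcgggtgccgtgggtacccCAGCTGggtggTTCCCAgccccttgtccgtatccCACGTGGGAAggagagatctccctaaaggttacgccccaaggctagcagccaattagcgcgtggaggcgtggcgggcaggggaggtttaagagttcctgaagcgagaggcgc
Dll1 site 1.07 kb upstream, chr17:15513912-15514111, minus strand: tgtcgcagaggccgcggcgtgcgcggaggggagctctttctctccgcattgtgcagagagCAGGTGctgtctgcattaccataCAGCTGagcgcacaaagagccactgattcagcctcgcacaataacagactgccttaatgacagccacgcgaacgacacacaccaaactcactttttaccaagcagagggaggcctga
Dll1 site 2.17 kb upstream, chr17:15515009-15515208, minus strand: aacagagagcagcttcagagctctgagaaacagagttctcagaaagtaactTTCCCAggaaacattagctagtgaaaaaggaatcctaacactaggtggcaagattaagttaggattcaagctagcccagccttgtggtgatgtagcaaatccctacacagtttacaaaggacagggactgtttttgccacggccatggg
Dll1 site 4.82 kb upstream, chr17:15517659-15517858, minus strand: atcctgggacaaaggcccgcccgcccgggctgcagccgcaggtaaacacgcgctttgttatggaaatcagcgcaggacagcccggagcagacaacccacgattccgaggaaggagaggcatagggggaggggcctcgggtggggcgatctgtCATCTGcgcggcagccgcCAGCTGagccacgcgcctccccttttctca
Lfng site 3.94 kb downstream, chr5:141087138-141087337, plus strand: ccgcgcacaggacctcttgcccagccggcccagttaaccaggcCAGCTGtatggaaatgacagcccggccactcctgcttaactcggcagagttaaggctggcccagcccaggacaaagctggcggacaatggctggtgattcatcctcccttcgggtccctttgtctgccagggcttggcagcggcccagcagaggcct
Notch1 site 16.4 kb downstream, chr2:26342851-26343050, minus strand: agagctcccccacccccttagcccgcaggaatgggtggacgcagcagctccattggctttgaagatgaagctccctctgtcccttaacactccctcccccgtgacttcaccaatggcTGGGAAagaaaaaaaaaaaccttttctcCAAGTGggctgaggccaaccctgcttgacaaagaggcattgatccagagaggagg
Notch1 site 32.0 kb upstream, chr2:26391226-26391425, minus strand: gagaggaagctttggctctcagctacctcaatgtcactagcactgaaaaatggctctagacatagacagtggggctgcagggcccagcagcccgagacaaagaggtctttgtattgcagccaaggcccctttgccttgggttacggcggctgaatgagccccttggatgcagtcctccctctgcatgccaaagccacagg

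In these windows the Lfng promoter held 2 RBPJ cores and 2 E-boxes, and 1 core overlapped 1 E-box by 2 bases. Over the 10 promoters 1 held a core and 4 an E-box, against 16.7% and 55.7% of 22219 promoters of like length. The start sites were not chosen alike. For the 10 genes the coding TSS nearest the RefSeq start was taken, and for the others the one of lowest coordinate. All 200 bases of the Dll3 window are annotated as untranslated region. Over the 14 TAF9B sites 4 held a core and 10 an E-box, against 18.7% and 60.4% of 10396 sites. The E-box form CAGCTG, a subset of the former, was in 4 of the 14 sites, at Dll1 (2 of its 4) and Lfng (both), against 17.2% of all sites. It was in 2 of the 10 promoters, against 9.84% of all promoters. These matches are letters in a window and not measured binding. The 4 sites with an RBPJ core were at Notch1, 16.4 kb downstream, at Notch3, at Dll1, 2.17 kb upstream, and at the Lfng TSS.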

How the data were processed

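RNA-seq was made by the authors from poly-A RNA. Reads were aligned to mm9 and RefSeq genes with TopHat, and the deposited FPKM values come from Cuffdiff, in 6 tables normalized separately. For ChIP-seq, reads were aligned with Bowtie and peaks called per library with MACS, and the scores deposited with the peaks are those of MACS (versions not given in the sources used here). The authors' fold changes (log2) and p-values are in the tables and were not used. The IgG control was not analysed here.

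Symbols came from RefSeq accessions. Ratios are log2 of deposited FPKM with no pseudocount, over genes above 1 FPKM in at least 1 library, and a gene counted as changed past 2-fold. The authors counted reads over whole transcripts without a stated strand setting. Genes were named by rule: the 10 members, the 3 genes closest to each by Pearson r of log2(FPKM + 1), and the highest and lowest ratio of each pathway list. Marker genes and the genes beside Dll3 were named after their values were seen. Peaks were assigned to coding TSSs of GENCODE vM1 by midpoint. For 89.0% of 17815 genes the RefSeq start lay within 100 bp of such a TSS. Sequences were read from the mm9 genome; a further promoter sequence and a further gene of the pathway lists are not reported here. Counting was tested on simulated data. Members, lists and alternatives were chosen with earlier results of these data known. Software was Python 3.11.15, pandas 2.3.3, numpy 2.4.6 and matplotlib 3.10.9.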

Additional observations from a re-analysis of the deposited data

Results flagged for a closer look

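Lfng and Notch3 were singled out because, among ratios of genes above 1 FPKM in either library, libraries labelled KO and WT differed by more than 1.5-fold in opposite directions at different stages. The log2 ratio of Lfng was 0.61 on day 2, at 2.92 and 1.91 FPKM for the KO and WT label, and -1.34 on day 4 and -1.74 on day 6. That of Notch3 was 0.61 on day 4 and -0.76 in spinal column, where genes over 8 kb had a median of -0.96 and the ratio centred on that median was 0.20. With 1 library per condition neither difference was tested.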

How the results depend on the processing

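No ratio past 2-fold changed direction in the recomputations below. Past 1.5-fold in place of 2-fold, the number of genes was 1 on day 2, 7 on day 4 (2 higher and 5 lower with the KO label) and 5 in spinal column. With 1 FPKM added to both values it was 3 on day 6, 1 in spinal column and 5 for day 6 EBs over ES cells. The last was also 5 with both libraries above 1 FPKM. Centred within classes of transcript length, an alternative chosen after seeing the data, spinal column had 0 genes past 2-fold in place of 2 and the day 4 and day 6 counts were 4 and 5, as without it. For day 6 EBs over ES cells that centring gave 5 higher and 2 lower in place of 4 and 4. Of the 30 closest patterns, 16 were also found with a pseudocount of 0.1 FPKM and 2 with the 8 culture libraries. TAF9B was within 5 kb of a TSS in 5 genes, and with scores above the list median it was at a TSS in 0, POL2 was at a TSS in 2 and distal TAF9B was at 1 gene. With the start sites of noncoding transcripts, also chosen after seeing the data, TAF9B was at a TSS in 3. The other 39 recomputed counts were within 1.5 times. Of 70 single ratios, 11 moved by 1.5-fold or more with 1 FPKM added, 0 when the median over expressed genes was subtracted and 6 when centred within length classes. Both centrings changed the sign of 3 ratios each, all within 2-fold, of which the largest was Notch3 in spinal column, from -0.76 to 0.20. No replicate could be left out, with 1 library per condition. Within a stage or tissue no paired analysis was possible because the groups compared share fewer than 2 replicate numbers. A comparison of the labels blocked by culture stage, with 1 clone per label, was not run. Depth limits Dll4 in ES cells, day 2 EBs and the day 6 library labelled KO, which rest on about 5 to 21 fragments.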
